A study of Mus musculus with 3 samples.

Results

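The comparison described here is that of mouse embryonic fibroblasts (MEF) given 10 µg/ml n-butylidenephthalide (BP10) with MEF given none (control), over the genes that gave a bright signal. MEF are primary connective tissue cells grown from mid-gestation embryos, and n-butylidenephthalide (BP) is a phthalide from the root of Angelica sinensis. Both cultures were C57BL/6 MEF in the same serum-containing medium, the labels record no treatment for the control whereas the study elsewhere calls it DMSO-treated, and the duration of BP is not given in the sources used here. Another culture, given 40 µg/ml BP (BP40), entered the brightness filter, and its level is printed beside the others. Each culture gave 1 Agilent mouse array of Cy3-labeled total RNA, so each difference below is between 2 arrays, with no replicate and no test. A probe was bright when its spots were well above background on all 3 arrays and its mean level over them was above 0, where a level is the log2 signal minus the 75th percentile of the gene spots of that array. Of 55681 gene probes, 35473 were well above background on all 3 arrays and 13171 were bright, and 0 probes with a mean level above 0 failed the background criterion. The bright probes stood for 10902 genes, 8380 of them with a gene symbol, and a gene took the value of its brightest probe. Just outside the limit lay Coro2b, Mark2 and Flvcr1, with mean levels of -0.0006, -0.0014 and -0.0014, and just inside it lay Aqp1, Gpaa1 and Tab3, with 0.0006, 0.0009 and 0.0016.

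The 3 arrays shared 1 slide, but both BP arrays were scanned together and the control apart from them. An effect of the scan and one of BP cannot be told apart. The gene spots had a median signal of 224 on the control array and 145 on BP10, no spot was saturated, and 81.7% and 68.3% of them were well above background. The scanner software divided the BP10 and BP40 signals by a fitted surface over the array and left the control signals undivided, although it fitted a surface there as well. Values with no such division, and with the control divided too, were therefore computed beside the main ones. The 7 bright E1A spike-in probes, RNA of known amount added before labeling, had BP10 minus control differences from -0.60 to 0.14 with a median of -0.0018 on the log2 scale.

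Embryonic fibroblasts secrete collagens and other matrix proteins and respond to growth factors of the TGF-beta and BMP families, whose receptors signal through SMAD proteins. They also keep basal programs that can be read from marker genes. Low oxygen stabilizes HIF-1, which switches on glycolysis and mitophagy genes through the short DNA element ACGTG. Type I interferon acts through STAT proteins and IRF9 on the interferon-stimulated response element, and zinc acts through MTF-1 on metal response elements of the metallothionein genes.

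Most bright genes differed little between the arrays. The BP10 minus control difference had a median of -0.11 and an SD across genes of 0.43 on the log2 scale, 62.97% of the 10902 genes were below 0, and 89.1% lay within 1.5-fold. At least 2-fold higher at BP10 were 75 genes (0.688% of the bright genes), and at least 2-fold lower were 192 (1.76%), 267 in all (2.45%). A gene symbol was carried by 154 of the 267 and by 8380 of the 10902 bright genes. Of these 267 genes, 29 had a control or BP10 spot that the scanner software flagged as an outlier, against 117 of all bright genes, and all 10 of the largest differences were among the flagged. Without a flagged spot were 61 genes higher (0.566% of 10785) and 177 lower (1.64%), 238 in all (2.21%). The plot of difference against brightness shows the flagged genes at its extremes. The median difference moved with brightness, from -0.07 for the 2246 genes with mean levels of 0 to 1 to -0.25 for the 479 genes of 6 to 7.

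**Figure D1:**
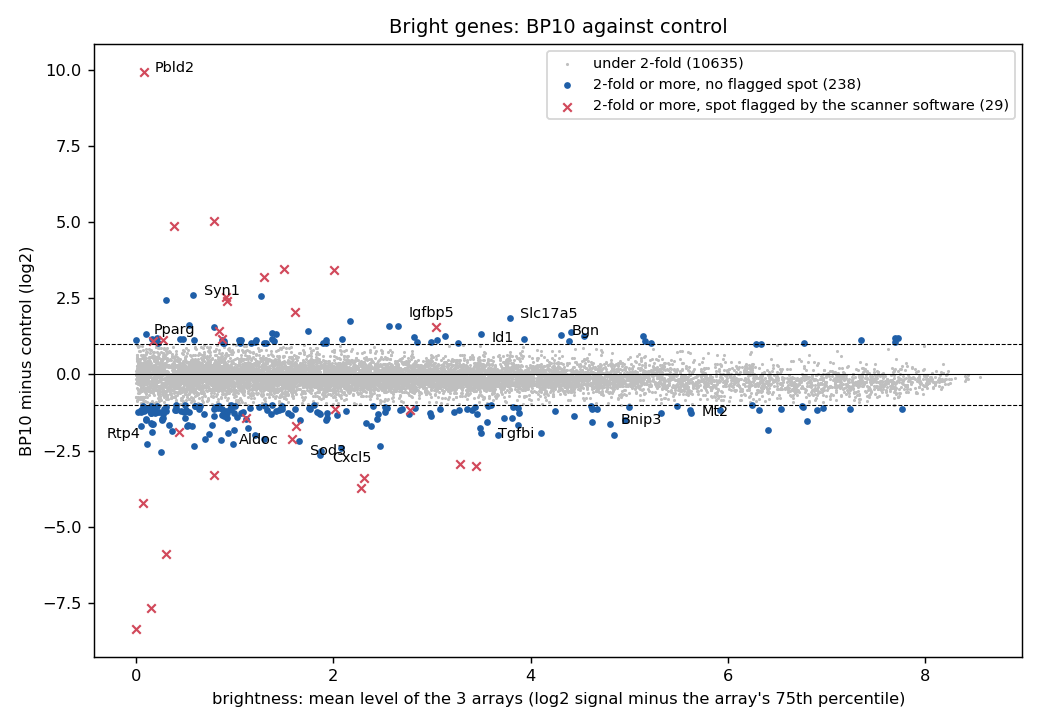
BP10 minus control (log2) of each of the 10902 bright genes against its mean level on the 3 arrays. Grey points differed less than 2-fold, blue points 2-fold or more with no flagged spot (238 genes), and red crosses 2-fold or more with a flagged spot (29 genes). The crosses reach 9.93, while the blue points lie between -2.65 and 2.61.

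The flagged extremes with a name were high on 1 array. Pbld2 had levels of -3.08 in the control, 6.86 at BP10 and -3.55 at BP40. Acvr2b (5.03), Slx4ip (4.87), Farp2 (3.44), Bard1 (3.20), Slc30a1 (2.55) and Dubr (2.06) were likewise high on the BP10 array and near the control level on BP40. On the lower side, Lmcd1 (-3.74), Ubash3b (-3.39), Ppp6r3 (-3.31), Rapgef1 (-3.02), Nsf (-2.95) and Kcnk13 (-1.89) were high on the control array alone. Of the 29 flagged calls, 27 came from probes printed once, and they are not described as changes of a gene below. The other 2, Pparg and Mest, had probes printed 10 times. The shares past 2-fold given below for all bright genes include the flagged calls. Promoter counts of genes past 2-fold were not filtered on flags either.

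The probes printed 10 times give the spread within an array. Over 171 such bright probes, the median SD of the log2 level between the 10 spots was 0.11 for control and 0.06 for BP10, and that of the difference was 0.10. Pparg, the nuclear receptor that drives adipocyte differentiation, had mean levels of -0.06, 1.39 and 1.18 on control, BP10 and BP40 at chr6:115440213-115440272 (mm9). The 10 spots gave differences from 1.25 to 1.68, with a mean of 1.44 ± 0.14 (SD of 10 spots of 1 array pair), and every spot was higher on BP10. Without its flagged spot the difference was 1.49. Mest, an imprinted gene of embryonic mesoderm, differed by -1.13 ± 0.09 over its 10 spots, with levels of 2.87, 1.75 and 1.42 on control, BP10 and BP40, and its second probe gave -0.74. Pdgfra, the PDGF receptor that marks fibroblasts, differed by -0.95 ± 0.10, just under 2-fold. Slc5a3, an inositol transporter, differed by 1.01 ± 0.09 on a probe printed 10 times, but by 0.29 on its brightest probe, printed once. The kinase Map3k3 differed by 0.92 ± 0.30 with a flagged spot, and by 1.03 without it. Gsta4, a glutathione transferase induced by NRF2, differed by 0.86 ± 0.12. The spot spread covers printing, hybridization and scanning of these arrays, and nothing between cultures.

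**Figure D2:**
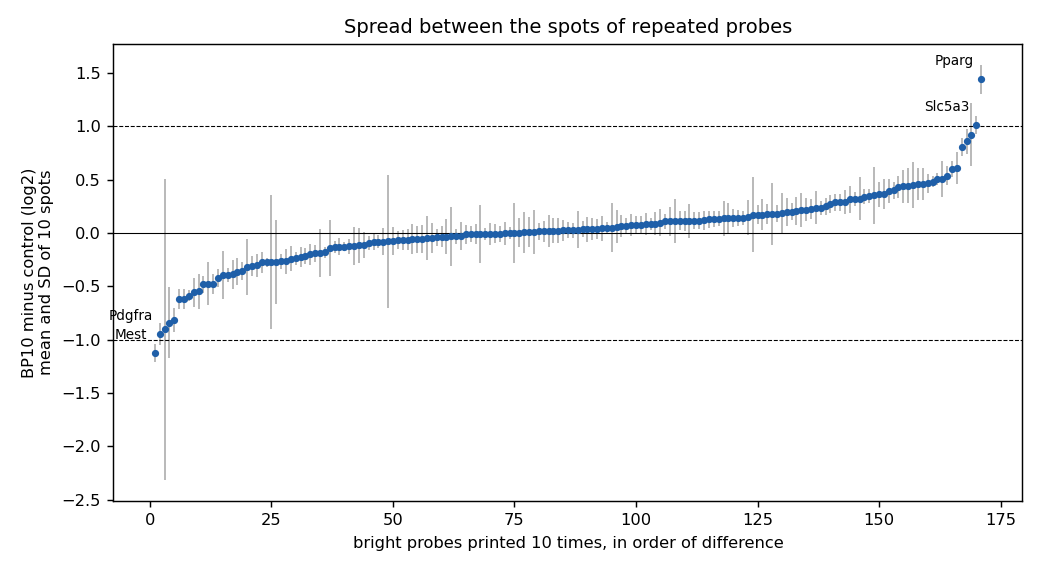
BP10 minus control (log2) of the 171 bright probes printed 10 times, in order of their difference; points are means and bars the SD of the 10 spots, and dashed lines mark 2-fold. Pparg, at 1.44, stands apart at the upper end, and Mest, at -1.13, at the lower.

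A second bright probe was available for 1826 genes, and the SD between the 2 probes of a gene had a median of 0.19 on the log2 scale. Of 23 unflagged genes past 2-fold with a second bright probe, 17 had the same sign on it and 8 also passed 2-fold. Among the 17 genes lower at BP10, 13 had the same sign on the second probe and 7 passed 2-fold. Both probes were low for Bnip3 (-1.64 and -1.98), Slc16a3 (-1.48 and -1.26), Il1rl1 (-1.30 and -1.11), Ifi204 (-1.27 and -1.63) and Dcaf12l2 (-1.17 and -1.42). Among the 6 higher genes, 4 had the same sign and 1, an unnamed transcript, passed 2-fold. For Rgl1 (1.76 and -0.28), Ier5 (1.21 and -0.14), Inpp5e (-2.10 and 0.17), Qdpr (-1.41 and 0.03), Wdfy1 (-1.22 and 0.21) and Pip5k1a (-1.06 and 0.79) the probes had opposite signs, and for Cited2 the second gave 0.18 beside 1.06. The reverse also occurred. Sparc differed by -0.37 on its brightest probe and by -2.10 on its second, and Eef1a1, a translation elongation factor with many near-identical copies, by -0.89 and 0.89. Most genes named below rest on 1 probe, and second probes are given where they exist.

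**Figure D3:**
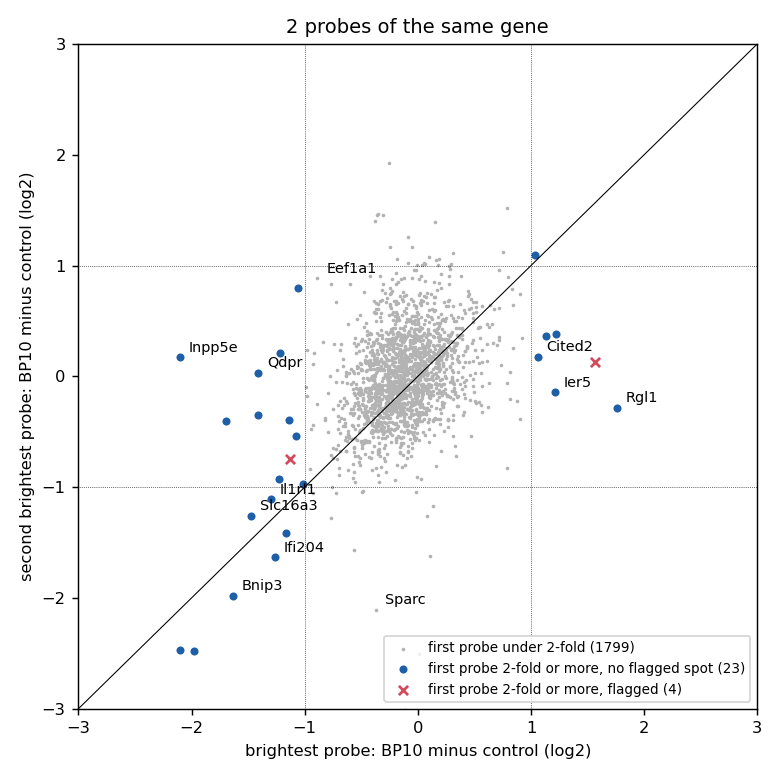
BP10 minus control (log2) of the brightest probe (horizontal) and of the second brightest probe (vertical) of 1826 genes, 7 of which lie outside the plotted range. Blue points passed 2-fold on the brightest probe without a flagged spot; Bnip3, Slc16a3, Il1rl1 and Ifi204 lie in the lower left on both probes, whereas Inpp5e, Rgl1 and Ier5 lie across the zero line.

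Genes of glycolysis and the hypoxia response were lower at BP10. Of 28 bright members of the list, 4 were at least 2-fold lower and 0 higher, 23 were below 0, and their median was -0.35 beside -0.11 for all bright genes. Of all bright genes 1.76% were at least 2-fold lower and 62.97% were below 0. Aldoc, an aldolase of glycolysis, had levels of 1.57 on control, -0.34 on BP10 and 1.56 on BP40 at chr11:78140198-78140257 (mm9), a 3.77-fold lower value at BP10. Pdk1, the kinase that keeps pyruvate out of mitochondria, had 1.07, -0.62 and 1.27, or 3.22-fold lower. Bnip3, a mitophagy receptor and HIF-1 target, had 5.05, 3.41 and 5.95 at chr7:146082760-146082819 (mm9), or 3.11-fold lower. The lactate exporter Slc16a3 had 5.44, 3.96 and 5.46, or 2.79-fold lower. In all 4 genes the BP10 array was the low one, and the BP40 level was close to that of the control in Aldoc and Slc16a3 and above it in Pdk1 and Bnip3.

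Other members of the list stayed within 2-fold. The glucose transporter Slc2a1 differed by -0.78, Pfkfb3 by -0.73, Adm by -0.73, Ndrg1 by -0.70 and Pgam1 by -0.69, while Pgk1 (-0.18), Aldoa (-0.07) and Vegfa (0.00 and, on a second probe, 0.47) were close to the control and Eno1 (0.23) and Pkm (0.26) were above it. Over the 8 members with a second bright probe the median on it was -0.13, with 4 below 0. With the trend on brightness removed the median of the list was -0.26. Further genes past 2-fold were picked after their values were seen. Mgarp, a mitochondrial protein induced by hypoxia, had levels of 0.77, -0.91 and 1.67, and the adenylate kinase Ak4 had 2.30, 0.88 and 2.63. Pgm1 (4.92, 3.87 and 5.06) and Pygl (0.39, -0.87 and 0.94), which feed glycogen-derived glucose into glycolysis, followed the same order. The flagged-spot probe of Fam162a, another HIF-1 target, was printed 10 times and differed by -0.84 ± 0.33 (SD of 10 spots).

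The promoters of 2 of these genes are shown for the HIF-1 core ACGTG, which reads CACGT on the other strand and was added after the values were seen. The letters are from RefSeq (GRCm38.p6), 5′ to 3′ along the gene, with each match in capitals.
Bnip3, chr7:138909599-138909624, minus strand: gcacgcgccgCACGTGccacacgctc
Slc16a3, chr11:120949030-120949066, plus strand: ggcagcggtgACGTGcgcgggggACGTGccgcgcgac
In Bnip3 the core is read on both strands in the same letters, from 108 bases before the start. In Slc16a3 the 2 matches begin 27 and 14 bases before it. In the 250 bases before the listed starts, 15 of 26 bright list members with a promoter held the core (57.7%), against 26.2% of the 6882 bright genes with a promoter and 18.5% of 27025 genes. Aldoc and Pdk1, the 2 lowest members, held none there. The list was made of known glycolysis and hypoxia genes, so its share describes the list and not BP10. Of all bright genes at least 2-fold lower, 26 of 85 with a promoter held the core (30.6%).

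Interferon-stimulated genes were also lower. Of 18 bright members, 4 were at least 2-fold lower, 0 were higher, 17 were below 0 and the median was -0.60. Over all bright genes 1.76% were at least 2-fold lower, 62.97% were below 0 and the median was -0.11. Rtp4, a chaperone of receptors that is strongly induced by interferon, had levels of 0.59 on control, -1.02 on BP10 and 0.94 on BP40 at chr16:23613668-23613727 (mm9), or 3.05-fold lower at BP10. Isg15, the ubiquitin-like modifier, had 2.27, 0.99 and 2.56 at chr4:155573649-155573708, or 2.42-fold lower. The antiviral synthetase Oas1a had 1.16, 0.02 and 1.68, and Parp9, an ADP-ribosyltransferase family member induced by interferon, had 0.78, -0.33 and 0.39. The tetherin gene Bst2, with 3.36, 2.39 and 3.71, was just under 2-fold. Of the factors that carry the signal, Stat2 differed by -0.81 and Irf9 by -0.72. Ifi35, at 0.18, was the 1 member above 0. All 4 second probes of members were below 0, with a median of -0.69. Outside the list, and picked after their values were seen, Ifi27l2a (-1.82), Ifi204 (-1.27 and -1.63), Ifi211 (-1.13) and Trafd1 (-1.12) were past 2-fold too.

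The interferon-stimulated response element core GAAANNGAA stood in overlapping copies in the promoters of Isg15, Oas1a and Bst2, which are shown for that arrangement.
Isg15, chr4:156200866-156200906, minus strand: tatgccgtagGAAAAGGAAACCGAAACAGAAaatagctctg
Bst2, chr8:71537578-71537612, minus strand: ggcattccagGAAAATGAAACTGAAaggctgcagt
Oas1a, chr5:120907526-120907555, minus strand: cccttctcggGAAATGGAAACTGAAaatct
The core, searched on both strands, matched 3 times in Isg15, beginning 78, 72 and 66 bases before the start, and 2 times each in Bst2 and Oas1a. It was found for 8 of 15 bright members with a promoter (53.3%), against 7.12% of bright genes and 8.18% of all genes. The list was made of known interferon-stimulated genes, so its share describes the list and not BP10. Members with the core ranged from Isg15 at -1.28 to Adar at -0.11. Of the bright genes at least 2-fold lower the core stood in 10 of 85 (11.8%), and of those higher in 4 of 38.

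MHC class I presentation, which interferon raises, had 0 of 10 bright members past 2-fold, beside 2.45% of all bright genes. The median of the list was -0.41 and 8 members were below 0, with H2-K1 at -0.82 and -0.37 on its 2 probes, the immunoproteasome subunit Psmb8 at -0.74 and B2m at -0.51. Over all bright genes the median was -0.11 and 62.97% were below 0. H2-K1 shares sequence with other class I genes, so its probes are uncertain.

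Of 3 bright metallothioneins, small proteins that bind zinc and copper, Mt2 was past 2-fold. Mt2 had levels of 5.71, 4.46 and 6.69 at chr8:96697371-96697430 (mm9), or 2.38-fold lower at BP10. Mt1 had 6.45, 5.67 and 7.37, or 1.71-fold lower, and Mt3 had 0.36, 0.24 and 0.64, close to the control. In all 3 the BP40 level was the highest. The letters TGCGCNC, 1 form of the metal response element core, matched 1 time in the Mt2 promoter, 128 bases before its start, and not in the 250 bases of Mt1. Other forms of the core were not searched, so the number of such elements in either promoter is not given by these matches. TGCGCNC was held by 2 of 10 bright members of the metal list with a promoter and by 25.7% of bright genes.
Mt2, chr8:94172480-94172506, plus strand: gcagacccttTGCGCTCagctcctttg
The zinc exporter Slc30a1 passed 2-fold only through a flagged spot (-0.04, 2.51 and 0.26), and the zinc sensor Mtf1 differed by -0.07. Among 12 bright members the median was -0.14.

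**Figure D4:**
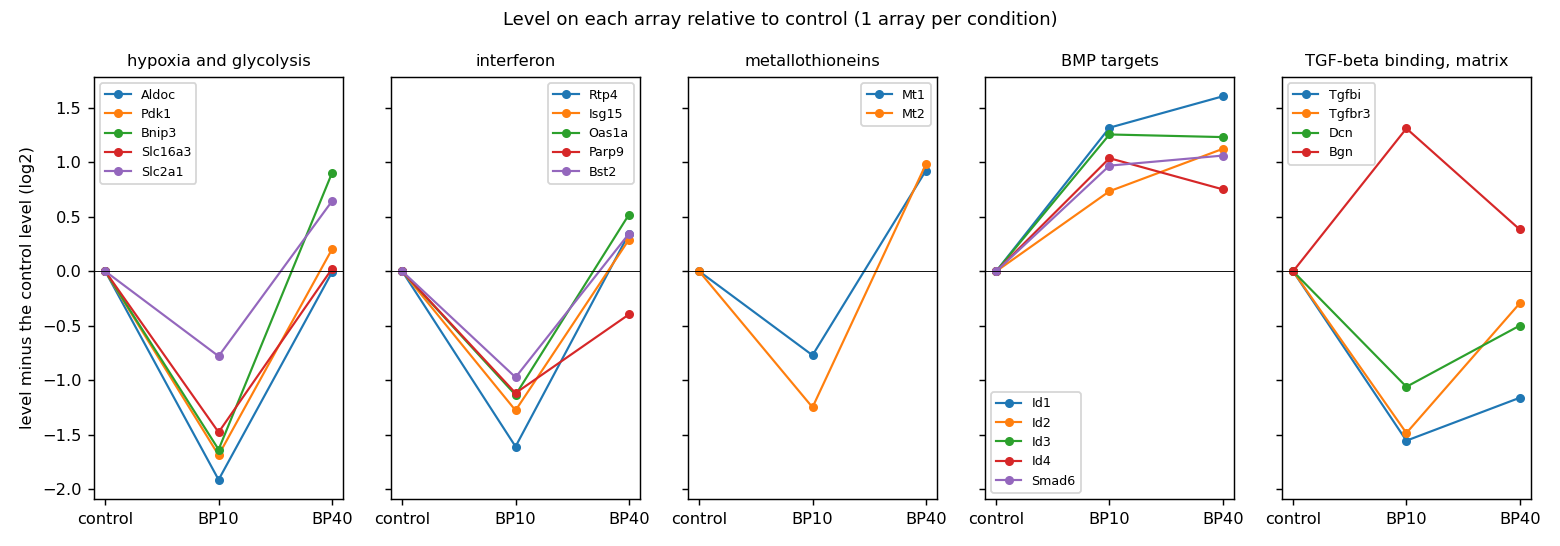
Level on the control, BP10 and BP40 arrays minus the control level (log2) for single genes, 1 array per culture; lines join the values of a gene and carry no error. The hypoxia and interferon genes, Mt1 and Mt2 are lowest on BP10, the BMP targets are above control on both BP arrays, and Bgn opposes Tgfbi, Tgfbr3 and Dcn.

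The list of TGF-beta and BMP signaling held members past 2-fold in both directions, 3 of 41 higher and 3 lower, with a median of 0.14 beside -0.11 for all bright genes. Of all bright genes 0.688% were at least 2-fold higher and 1.76% lower. The higher members of the list were Id genes, direct BMP targets whose proteins block bHLH transcription factors. Id1 had levels of 2.52 on control, 3.84 on BP10 and 4.13 on BP40 at chr2:152563083-152563142 (mm9), or 2.49-fold higher at BP10. Id3 had 3.71, 4.96 and 4.94, or 2.39-fold higher, and Id4 had 0.70, 1.74 and 1.45, or 2.05-fold higher. With the control divided by its surface Id4 was at 0.86, under 2-fold, and Id1 and Id3 at 1.25 and 1.17. Id2, with 1.94, 2.67 and 3.06, and the inhibitory Smad6, also a BMP target, with 0.15, 1.12 and 1.21, were 1.67-fold and 1.96-fold higher. All 5 were above the control on both BP arrays. Of the ligands, Tgfb2 differed by 0.92 and, on a second probe, 0.35, Inhba by 0.74 and Tgfb1 by 0.46, while Bmp4 was at 0.00. The receptors Bmpr1a (-0.65), Tgfbr2 (-0.49) and Tgfbr1 (-0.37) were below the control and Bmpr2 (0.38) above it.

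The 3 lower members bind TGF-beta or are induced by it. Tgfbi, a matrix protein named for its induction by TGF-beta, had levels of 4.46, 2.91 and 3.30 at chr13:56740460-56740519 (mm9), or 2.94-fold lower. Tgfbr3, the co-receptor betaglycan, had 2.52, 1.04 and 2.23, or 2.80-fold lower, and the proteoglycan decorin, Dcn, had 3.96, 2.90 and 3.46, or 2.09-fold lower. Biglycan, Bgn, the proteoglycan most like decorin, went the other way, with 3.74, 5.05 and 4.13 at chrX:70738554-70738613, or 2.48-fold higher. With the control divided by its surface Bgn was at 0.95, under 2-fold, and Dcn at -1.47.

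Matrix lists differed from each other. Over all bright genes 62.97% were below 0, 0.688% were at least 2-fold higher and 1.76% lower. Of 38 matrix glycoproteins and proteoglycans 27 were below 0, with 3 at least 2-fold lower (Tgfbi, Dcn and Gpc3 at -1.22, or -0.96 with the control divided by its surface), Bgn higher, and a median of -0.27 (-0.10 with the trend on brightness removed). Of 33 genes of collagens and their processing, Col11a1, a fibrillar collagen, was past 2-fold at -1.26, while Col3a1 (-0.76) and Col1a1 (-0.74) were under it and the median was -0.11, as over all bright genes. The 22 integrins and laminins had a median of 0.11 and none past 2-fold, with Itga5, a fibronectin receptor subunit, highest at 0.77. The 25 matrix proteases and inhibitors (0.06) and 44 contractile and cytoskeletal genes (-0.03) had none past 2-fold either. Sod3, the superoxide dismutase of the matrix, had levels of 2.72, 0.54 and 1.69 at chr5:52760685-52760744, or 4.54-fold lower. The NG2 proteoglycan Cspg4 had 1.86, 3.46 and 2.36, or 3.03-fold higher.

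The chemokines Cxcl5 and Cxcl14 were past 2-fold, and the other bright chemokines of the list were not. Cxcl5, which attracts neutrophils, had levels of 3.14 on control, 0.62 on BP10 and 1.87 on BP40 at chr5:91190490-91190549, or 5.75-fold lower at BP10. Cxcl14 had 4.81, 3.16 and 3.64, or 3.15-fold lower, and the IL-33 receptor Il1rl1 had 4.42, 3.12 and 2.82, or 2.46-fold lower. These 3 were the members past 2-fold among 18 bright inflammation genes, of which 10 were below 0 with a median of -0.16. Of all bright genes 2.45% were past 2-fold and 62.97% were below 0, with a median of -0.11. Ccl2 (-0.36), Cx3cl1 (-0.21), Cxcl12 (-0.20 and -0.23), Ccl7 (0.07) and Ccl9 (0.13) stayed within 2-fold, and the inhibitor Nfkbia was at 0.45.

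Among 40 bright genes of JAK-STAT signaling, 1 was past 2-fold. Socs3, the feedback inhibitor that STAT3 induces, had levels of 3.13, 2.01 and 2.94 at chr11:117827480-117827539, or 2.17-fold lower at BP10. Jak2 differed by -0.47, Stat3 by -0.42, Osmr by -0.70, Il6ra by -0.61, Lifr by -0.52 and Il6st by -0.51, and 29 of 40 members were below 0 with a median of -0.10. Over all bright genes 62.97% were below 0, 2.45% were past 2-fold and the median was -0.11, so the list did not stand apart from them in these counts. Ccnd2, a cyclin at the end of the pathway, was highest at 0.83. Cebpd, a STAT3 target picked after its value was seen, had 4.84, 3.64 and 4.26.

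The 48 mitosis and DNA replication genes had a median of 0.00 with none past 2-fold, from Dut at -0.59 to Top2a at 0.56. Igfbp5, which binds insulin-like growth factors, had levels of 2.27, 3.86 and 1.84 at chr1:72904829-72904888, or 3.02-fold higher at BP10 and below the control on BP40. In the same list of 22 IGF and imprinted genes, whose median was -0.10, the imprinted Ndn (0.96), Peg3 (0.73), Igf2 (0.55), Meg3 (0.52 and 0.58) and Dlk1 (0.45 and 0.61) were above the control, and Mest, Igfbp7 (-0.74), Igf1 (-0.66 and 0.10) and Cdkn1c (-0.65) below it. Of the p53 targets and cell cycle inhibitors, Polk was the 1 of 26 past 2-fold (1.12), falling to 0.64 with no division by a surface, and Cdkn1a was at -0.18 and 0.56 on 2 probes.

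Of 74 bright genes of oxidative phosphorylation 66 were below 0, with a median of -0.26 and none past 2-fold. For this and the following lists, the share below 0 over all bright genes was 62.97% and the median -0.11. Of 78 cytosolic ribosomal protein genes 70 were below 0, with a median of -0.23 and none past 2-fold. These genes are very bright, where the median of all genes was lower as well. With the trend on brightness removed the medians were -0.11 and 0.04, so the direction of the ribosomal list depends on that step, and many ribosomal probes also match processed pseudogenes. Of 31 cholesterol and fatty acid synthesis genes 27 were below 0, with a median of -0.32 (-0.21 with the trend removed). Over the 4 members with a second bright probe the median on it was -0.02, with 2 below 0. The sterol reductase Tm7sf2 was the 1 past 2-fold at -1.10 (-0.93 with the control divided by its surface), followed by the desaturase Scd1 at -0.95. Among 33 genes of ATF4 and the unfolded protein response none passed 2-fold. The amino acid transporter Slc7a5 (-0.96), Ddit4 (-0.94), Trib3 (-0.91) and asparagine synthetase Asns (-0.80) were lowest, while the chaperone Hspa5 was at -0.13, and Atf4 itself gave -0.69 and 0.24 on 2 probes. The 28 NRF2 genes had a median of 0.07, with Sqstm1, the autophagy receptor p62, past 2-fold at 1.13 (0.77 with no division by a surface, 0.89 with the control divided too) and Gclm (0.75) and Nqo1 (0.58) under it. The 23 heat shock and chaperone genes had a median of -0.09 and none past 2-fold. The 32 genes of fatty acid oxidation and uptake had Pparg higher and Acsl3 lower (-1.14, or -0.99 with no division by a surface) and a median of -0.07, which was -0.23 without genes with a flagged spot and 0.00 with the trend removed. With the trend removed the medians of the heat shock, NRF2 and contractile lists were 0.16, 0.24 and 0.20, so their position about 0 depends on that step.

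**Figure D5:**
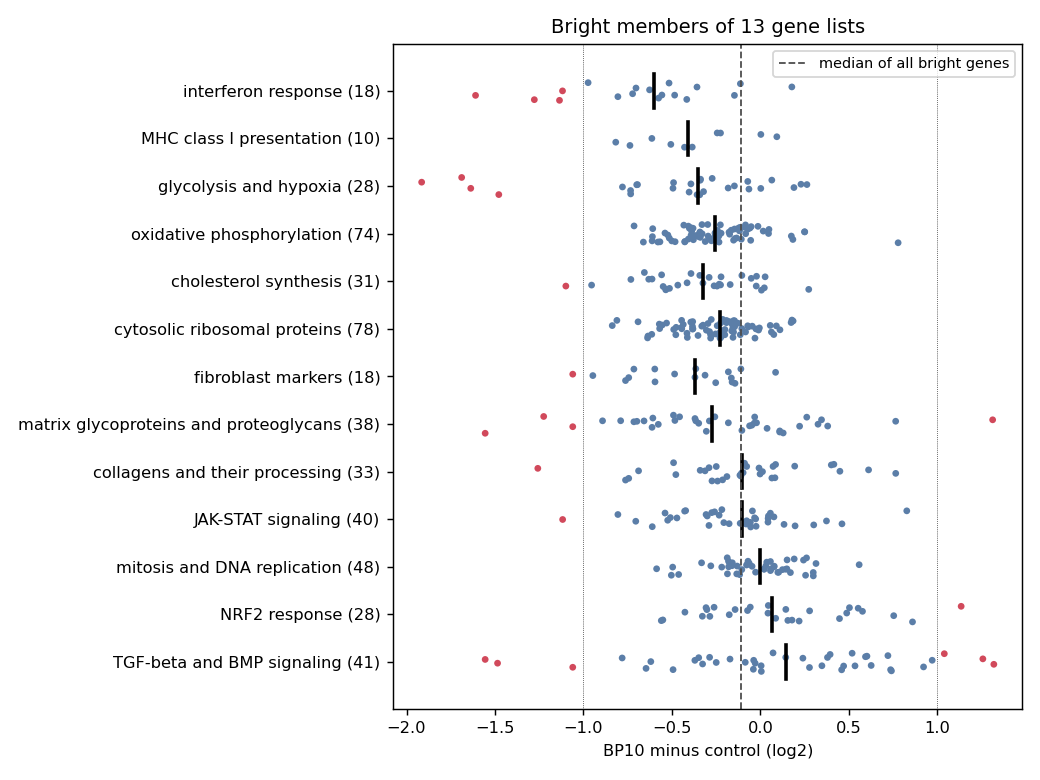
BP10 minus control (log2) of the bright members of 13 gene lists, with the number of members in brackets; red points passed 2-fold, black bars are medians, the dashed line is the median of all bright genes (-0.11) and dotted lines mark 2-fold. The interferon list lies lowest with a median of -0.60, and the TGF-beta and BMP list has red points on both sides.

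The largest unflagged differences of single genes were outside the lists in many cases. Syn1, a synaptic vesicle protein, had levels of -0.25 on control, 2.36 on BP10 and -0.39 on BP40, so 1 unflagged spot on BP10 carries its 6.09-fold difference. Slc17a5, the lysosomal sialic acid exporter, had 2.77, 4.64 and 3.94 and was 3.65-fold higher. Atrip, the partner of the ATR checkpoint kinase (1.42), Xntrpc (1.55), Erp27 (1.36), Map6d1 (1.33) and Usp22 (1.32) complete the unflagged genes among the 20 highest. Among the lowest were Baiap2l2 (2.85, 0.20 and 2.55, again a single low array), the synaptotagmin Syt10 (4.39, 2.04 and 0.99), Lrrc2 (-1.88), Iqsec3 (-1.75), the kinesin Kif3c (-1.69) and Wfdc13 (-1.66).

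The labelled cell type was checked against its markers. All 20 genes of the fibroblast list were well above background on all 3 arrays and 18 were bright, among them Col1a1, Col1a2, Vim and Thy1. Not bright were Atl1 and Lum, the latter with levels of 0.53, -2.68 and -1.69 on control, BP10 and BP40. Atl1 entered the list through the name Fsp1 and is not a fibroblast marker. Of the 18 bright genes 17 were below 0, with a median of -0.37 (-0.19 with the trend on brightness removed). Over all bright genes 62.97% were below 0 and the median was -0.11. Dcn was past 2-fold. In cultures measured whole, fewer cells of a type and less RNA per cell cannot be told apart. Of 18 macrophage markers 9 were bright, with a median of 0.05. Lyz2 was past 2-fold (levels of -0.60, 0.49 and 0.65), though not with the control divided by its surface (0.93), while Itgam (-0.45) and Csf1r (-0.31, and -4.99 on a second probe with a flagged spot) were below the control, C1qb and C1qc were at 0.25 and 0.04, and the dim Ptprc and Adgre1 had levels of -2.54 and -0.80 on the control array and -2.85 and -1.26 on BP10. The Lyz2 probe may also read the near-identical Lyz1. The part of such cells in the differences was not tested. Bright were 2 of 24 skeletal muscle, 3 of 14 endothelial, 4 of 19 cartilage and bone, 2 of 19 epithelial, 5 of 17 neural and 3 of 12 adipocyte markers, and 0 of 10 erythroid ones. Past 2-fold among them were S100b (0.65, -0.56 and 0.81), Col11a1 and Pparg. The dim adipocyte markers Adipoq, Lep, Plin1, Cfd, Cidec, Retn and Slc2a4 were lower on BP10 than on control. Fabp4 and Cebpa, also dim, were higher. The defining Myod1 and Pax7 had levels below -2 on control and BP10, and Cdh5, Epcam and Cdh1 were well above background on 0 arrays. Other members were detected. Well above background on all 3 arrays were 17 of 24 muscle markers (Myod1 and Pax7 among them), 10 of 14 endothelial and 13 of 19 epithelial markers. In the muscle, endothelial and epithelial lists the largest bright differences were those of Myl4 (-0.48), Eng (0.47) and Krt18 (0.20).

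Both bright Y-linked genes were lower at BP10. Eif2s3y had levels of 1.88, 0.80 and 1.72 on control, BP10 and BP40, a difference of -1.09 that was -0.91 with the control divided by its surface, and Ddx3y had 1.71, 1.09 and 1.74. Xist, the X-inactivation transcript, was below the brightness limit, with -1.89, -0.85 and -2.17. The part of the embryos' sex in the differences was not tested. Of 6 bright reprogramming and pluripotency genes all were below 0, beside 62.97% of all bright genes. Sall4, a zinc finger factor of early embryos, had 0.92, -0.58 and -0.05, or 2.84-fold lower, Klf4 differed by -0.67 and Myc by -0.08. Among 21 bright Hox and limb position genes none passed 2-fold, with a median of -0.17 and Pitx1, a hindlimb factor, lowest at -0.84. In the 22 Wnt genes the antagonist Dkk2 was the 1 past 2-fold (-1.03), with a median of -0.23.

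Immediate early genes had a median of -0.01 over 25, with Ier5 past 2-fold on 1 probe. In the remaining lists the members with the largest difference were the proteasome subunit Psmc2 (-0.64 and, on a second probe, -0.57, 37 genes, median -0.13), the ribosomal Rpl4 (-0.84), the splicing protein Snrpc (-0.73, 42 genes, median -0.09), the histone H3f3a (-0.59 and, on a second probe, -0.43, 27 genes, median -0.14), the oligosaccharyltransferase subunit Ddost (0.70, 47 genes, median -0.16), Serpine2 (0.73) and Dnajb4 (0.83). The 50 lysosome and autophagy genes had a median of -0.01 with Sqstm1 past 2-fold, and the 30 translation and nucleolar factors a median of 0.00 with none.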

How the data were processed

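One Agilent 1-colour array per culture was read (control, BP10 and BP40). The authors deposited scanner files, where Feature Extraction 10.5.1.1 gives each spot an intensity after background subtraction, with no scaling between arrays, and a ratio surface for multiplicative detrending. Per the deposited values the surface was applied to BP10 and BP40 and not to the control. Intensity values of the deposited series table equal these. Probe coordinates are those of the files (mm9).

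From these, log2 of the processed intensity was taken, the 75th percentile over the gene spots of each array was subtracted, and spots of a probe were averaged. Outlier flags were not filtered in the main setting. Probes were named by RefSeq accession (26425), otherwise by the scanner name or a synonym of it (826). Called means a log2 difference of 1 or more in size. With 1 array per culture no test was run.

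The members and the 42 gene lists were chosen with earlier results of these data known. Named are the 20 highest and 20 lowest genes with a symbol past 2-fold, up to 3 called members of each list or else the 1 with the largest difference, Jak2, Stat3, Klf4, Myc, Pparg and bright sex-linked genes; others are given as members of a list or said to be picked later. The alternatives were fold thresholds of 1.5 and 3, brightness limits of 1 and -1, quantile normalization, the median of bright probes, the percentile over probes above background, a lowess trend on brightness (fraction 0.3), normexp (offset 50), the median of probes, the second probe, a filter on 2 arrays, leaving out flagged spots and the series table. The 2 detrending settings, spike-in scaling and the ACGTG and TGCGCNC motifs were added after the data were seen. Calling was run on large simulated differences in genes well above the brightness limit, with little noise. That checks the code and not the calls in these data. Tools were Python 3.11.15, numpy 2.4.6, pandas 2.3.3, statsmodels and R 4.3.3 with limma 3.58.1. Some genes that the naming rule selects are not reported here.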

Additional observations from a re-analysis of the deposited data

How the results depend on the processing

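No paired analysis was possible because each culture has 1 array. The 75 higher and 192 lower genes, with 28.1% of the calls higher, became 387 and 797 at 1.5-fold, 17 and 50 at 3-fold, 49 and 107 with mean levels above 1, and 116 and 365 with mean levels above -1, as a threshold does by its construction. On second probes, which 1826 genes have, 26 were higher and 22 lower, so 54.2% of the calls were higher. The share of higher calls was 36.9% after centring on the median of bright probes, with 94 higher and 161 lower genes. It was 34.0% after removing the trend on brightness. In the other settings both counts stayed within 1.5 times and the share between 22.8% and 33.9%. These bounds are a 95% exact interval that treats each called gene as an independent draw. Genes of 1 array pair are not replicates, so the bounds only mark a range for comparing settings and give no error of the share. The series table equals the scanner values and could not differ. Of 1193 recomputed differences of 88 named genes, 1114 moved by less than 0.19, the median SD between 2 probes. Among the genes past 2-fold 3 changed sign, Ier5 (-0.14), Inpp5e (0.17) and Rgl1 (-0.28), each on its second probe. Eef1a1, under 2-fold, also changed sign there, from -0.89 to 0.89. Of 607 recomputed list medians, 577 moved by less than that. Neither count measures robustness, because several of the pooled settings could hardly move these values. The series table is identical, and spike-in scaling and median centring shift all genes alike. Brightness limits leave the difference of a gene unchanged. Of the 238 unflagged calls, 202 remained with no division by a surface, 160 with the control divided too, 219 with quantile normalization, 200 with normexp and 211 with the trend removed. Dividing the control by its surface took the SD between its 10 spots from 0.11 to 0.17. Why these counts shift was not tested. Dim genes below the limit were not analysed here, and 3 arrays limit the precision.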
